A study of Mus musculus with 12 samples.

Results

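The 10 genes studied here encode CC chemokines and their receptors tied to the recruitment of monocytes, and were followed through 12 RNA-seq libraries of mouse gingiva. The genes were taken from a list of names, Ccl2, Ccl3, Ccl4, Ccl6, Ccl7, Ccl8, Ccl9, Ccl12, Ccr1 and Ccr2, and all 10 were found among the 21965 genes of the count table. The study asked how loss of Cybb, which encodes the catalytic subunit of the phagocyte NADPH oxidase Nox2, alters the inflammation that follows a ligature tied around a tooth. Polyadenylated RNA was sequenced from gingival tissue of 4 groups with 3 libraries each. WT naive and WT ligated libraries came from wildtype C57BL/6 mice, and naive and ligated libraries labelled Cybb-/- came from mice described as lacking Nox2. Ligated mice carried a silk thread around a maxillary molar for 8 days, and naive mice carried none. All mice were under 12 weeks old according to the labels, and the methods give a narrower range and both sexes. The gene was disrupted in the whole animal, so no cell type was singled out, and the sources differ on whether the right or the left molar was tied. The labels do not say that each library came from a separate mouse, and p-values measure only the spread between these libraries, which may be technical.

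Chemokines are small secreted proteins that steer leukocytes along a gradient, and CC chemokines carry their first pair of cysteines side by side. Monocytes that leave the bone marrow depend on the receptor CCR2, which binds CCL2, CCL7 and CCL12. CCR1, found on monocytes and neutrophils, binds CCL3, CCL6, CCL7 and CCL9, while mouse CCL8 acts mainly through CCR8. In the gingiva such chemokines are made by resident macrophages, fibroblasts, endothelium and the epithelium, and by the leukocytes that arrive.

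The libraries held between 27958819 and 42613423 counted reads. Cybb, the disrupted gene, went against its label. Its level was 4.19 to 5.604 CPM (reads scaled to 1000000 counted reads of a library) in WT naive, 8.41 to 15.2 CPM in WT ligated, 41.6 to 56.3 CPM in naive and 51.1 to 63.7 CPM in ligated libraries labelled Cybb-/-. The disrupted gene was thus higher in every library of the mutant label, and the count says nothing of a working protein. Every direction given between genotypes therefore follows the labels, and Cybb-/- stands throughout for libraries labelled so. The oral epithelial keratins and Epcam summed to 45255 to 81096 CPM, so the markers that define gingival epithelium were present. WT naive replicate 3 stood apart by its salivary gland marker sum of 28946 CPM, against 55.9 to 4979 CPM in the other 11 libraries. Nearly all of it was Muc5b, with a WT naive mean of 10577 CPM against 1.42 CPM for Bpifa2, the next highest. Leaving out WT naive replicate 3 gave 737 called genes in place of 481 between WT ligated and naive tissue, and 0 in place of 1 of the 10 genes.

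All 8 ligand genes lie on chromosome 11 of the mouse build GRCm38, in a pair of groups. The first group runs on the plus strand and holds Ccl2 at chr11:82035571-82037453, Ccl7 at chr11:82045712-82047525, Ccl12 at chr11:82101845-82103400 and Ccl8 at chr11:82115185-82116799. Here the start of Ccl8 lies 79.6 kb from the start of Ccl2. The second group holds Ccl9 at chr11:83572919-83578636, Ccl6 at chr11:83587882-83593087 and Ccl3 at chr11:83647844-83649355 on the minus strand, and Ccl4 at chr11:83662584-83664683 on the plus strand. The first transcribed base of Ccl9 lies 1543 kb from that of Ccl2. Both receptors lie on chromosome 9, Ccr1 at chr9:123962124-123968692 on the minus strand and Ccr2 at chr9:124101950-124113557 on the plus strand, with 133 kb between them. No exon of the 10 genes overlapped an exon of another gene. Reads of related genes could be confused only over short stretches. Of all windows of 36 bases, 3.29% of Ccl9, 2.81% of Ccr2, 0.740% of Ccl6 and 0.429% of Ccr1 also occurred in transcripts of other genes, and none of the other 6 did.

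Promoter sequence from RefSeq (build GRCm38.p6, 250 bases before to 50 bases after the start) was at hand for 7 of the 10 genes, which are Ccr1, Ccr2, Ccl3, Ccl6, Ccl8, Ccl9 and Ccl12. Of them 4 are shown over the 250 bases before the start, 5' to 3' on the strand of the gene. Ccr1 and Ccl9 are shown because they hold the only matches among the 7 to the NF-kB consensus, marked in capitals. Both rose in ligated Cybb-/- tissue, but so did Ccl3, Ccl6 and Ccr2, which are among the 7 and hold no match. Ccl8 and Ccl12 are neighbours that did not pass the test in either genotype, and their capitals mark the letters TATAAA. The windows are chr9:123968693-123968942 on the minus strand, chr11:83578637-83578886 on the minus strand, chr11:82114935-82115184 on the plus strand and chr11:82101595-82101844 on the plus strand.
Ccr1: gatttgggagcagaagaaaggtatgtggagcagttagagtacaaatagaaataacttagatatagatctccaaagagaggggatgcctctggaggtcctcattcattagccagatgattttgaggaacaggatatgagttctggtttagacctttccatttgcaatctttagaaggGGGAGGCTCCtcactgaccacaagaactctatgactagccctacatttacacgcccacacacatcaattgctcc
Ccl9: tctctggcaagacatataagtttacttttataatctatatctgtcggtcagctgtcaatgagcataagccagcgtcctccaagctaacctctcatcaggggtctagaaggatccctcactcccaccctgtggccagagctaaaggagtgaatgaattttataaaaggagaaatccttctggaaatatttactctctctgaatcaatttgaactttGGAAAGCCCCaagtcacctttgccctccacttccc
Ccl8: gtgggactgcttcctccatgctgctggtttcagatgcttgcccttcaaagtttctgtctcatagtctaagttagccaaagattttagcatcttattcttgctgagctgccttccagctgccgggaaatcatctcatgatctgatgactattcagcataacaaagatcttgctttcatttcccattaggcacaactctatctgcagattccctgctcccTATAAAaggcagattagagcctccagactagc
Ccl12: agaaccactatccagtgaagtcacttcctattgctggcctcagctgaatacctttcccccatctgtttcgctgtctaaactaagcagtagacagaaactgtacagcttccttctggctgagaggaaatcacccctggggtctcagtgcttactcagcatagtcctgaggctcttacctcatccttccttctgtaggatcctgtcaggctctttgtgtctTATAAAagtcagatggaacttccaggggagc

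Positions are counted from the RefSeq start, with -1 the last base before it, and both strands were searched. The NF-kB consensus began at -74 in Ccr1 and at -35 in Ccl9, and 8.18% of 27018 promoters of the same length held a match. TATAAA was found in Ccl12 at -31 and in Ccl8 at -32, near the distance typical of a TATA box, and in Ccl9 at -224, -94 and -92, where the last 2 matches overlap on opposite strands. In all, 14.2% of promoters held it. The AP-1 letters TGANTCA matched Ccl9 only, at -53, without overlap with its NF-kB match, against 7.94% of promoters. The C/EBP letters TTNNGNAAT matched Ccr2 and Ccl3 (11.6% of promoters), and the PU.1 core GAGGAA matched Ccr1, Ccl3, Ccl8 and Ccl12 (28.3% of promoters). No match was found to the GAS letters TTCNNNGAA (8.47% of promoters) or to the ISRE core (3.49% of promoters). These are matches of letters and not measured binding.

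Per length of exon, the most abundant of the 10 transcripts in every group was Ccl6, followed by Ccl8. In WT naive gingiva Ccl6 stood at 9.98 ± 1.08 CPM per kb (SD, n = 3) and Ccl8 at 6.83 ± 2.41 CPM per kb (SD, n = 3), ranges that overlapped. Both lay above Ccl9 at 1.81 ± 0.362 CPM per kb (SD, n = 3) with no overlap. Ccl9, Ccl2, Ccr2, Ccr1 and Ccl7 followed down to 1.04 CPM per kb, each neighbour overlapping the next. Ccl12, Ccl4 and Ccl3 came last, and Ccl3 had 0.230 ± 0.0607 CPM per kb (SD, n = 3). In ligated libraries labelled Cybb-/- the order below Ccl6 and Ccl8 was different, and Ccl12 was last at 1.33 CPM per kb. Ccr1 came next after Ccl8 at 8.58 ± 3.95 CPM per kb (SD, n = 3), and Ccl4 at 2.00 ± 0.328 CPM per kb (SD, n = 3) lay below all the libraries of Ccr2, the gene ranked above it.

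**Figure D1:**
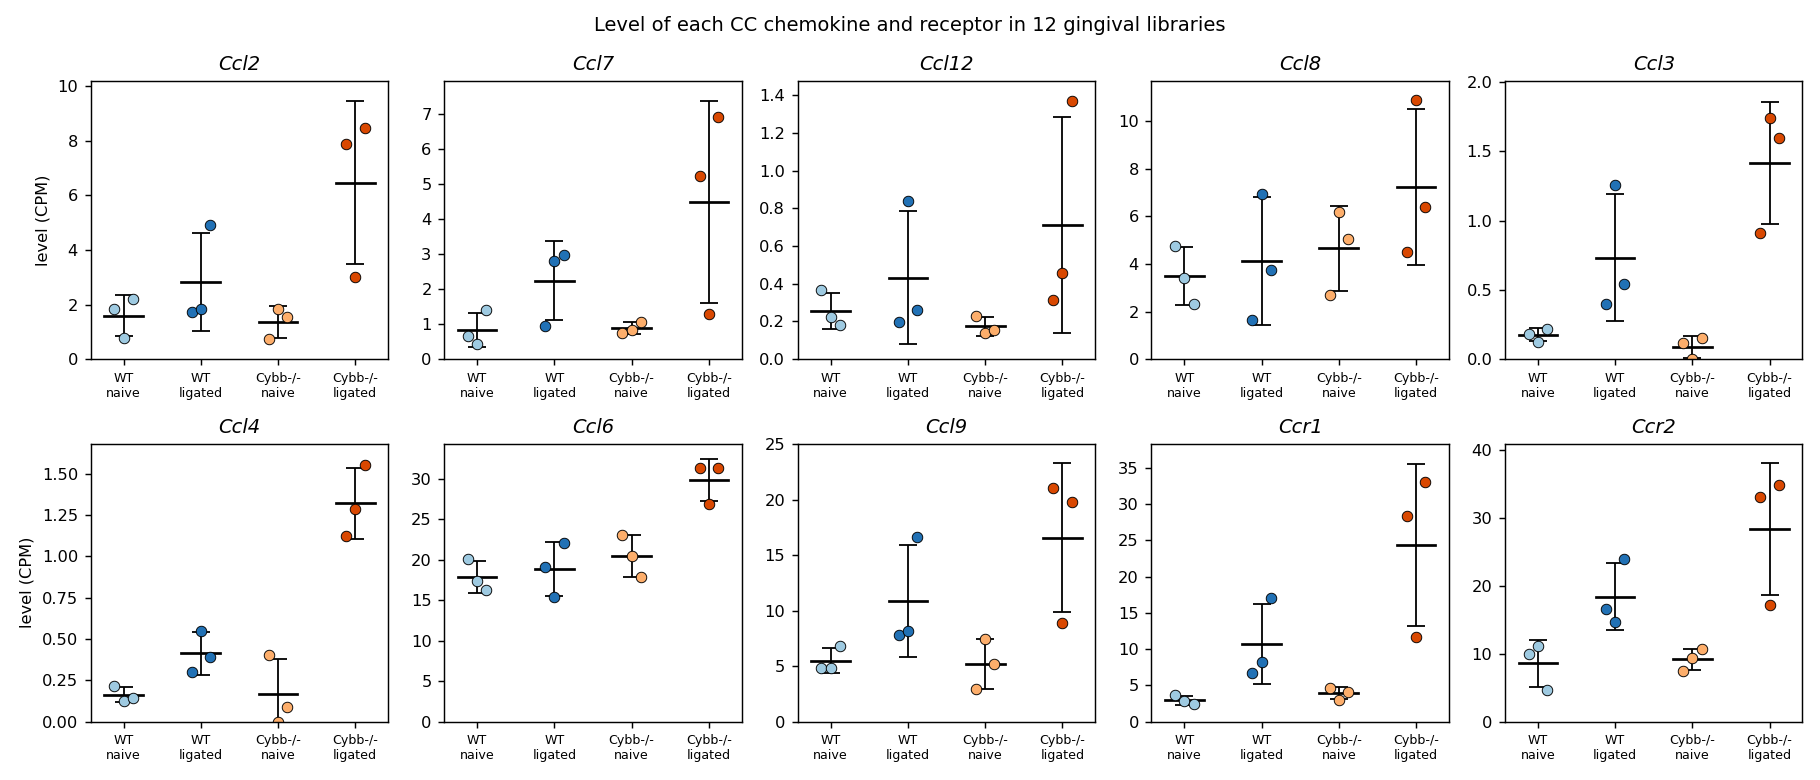
Level of each gene in CPM (y axis, linear from 0) in the 4 groups, with 1 point a library, a bar at the mean and error bars of 1 SD over 3 libraries. Ccl3 and Ccl4 are near 0 in naive libraries and reach 1.74 and 1.55 CPM in ligated libraries labelled Cybb-/-, while the groups overlap for Ccl8.

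With edgeR, genes of the 10 were called only between ligated and naive libraries, and not between genotypes. In libraries labelled Cybb-/-, 8 of the 10 were called higher after 8 days at an adjusted p under 0.05 (edgeR quasi-likelihood test, adjusted over 15046 genes), where 9.95% of all tested genes were called higher and 13.0% in either direction. They were Ccl2, Ccl7, Ccl3, Ccl4, Ccl6, Ccl9, Ccr1 and Ccr2. Among WT libraries only Ccr1 was called, where 2.31% of all genes were called higher and 3.20% in either direction. The median log2 fold change of the 10 genes was 2.14 in libraries labelled Cybb-/- and 1.04 in WT, beside medians of -0.03 for all genes in both. None of the 10 had a fitted change below 0 in either genotype. In WT 46.7% and in Cybb-/- 46.2% of all genes were above 0. The test of the difference between these responses, given further down, called none of them.

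Counted without any model, 9 of the 10 genes had no overlap between the 3 ligated and the 3 naive libraries in Cybb-/-, all of them higher in ligated tissue, where 31.4% of all genes had no overlap in either direction. The exception was Ccl8. In WT 5 of the 10 had no overlap, namely Ccl3, Ccl4, Ccl9, Ccr1 and Ccr2, all higher in ligated tissue, where 24.9% of all genes had none. At an unadjusted p under 0.05 stood 9 of the 10 in Cybb-/-, where 27.7% of all genes stood, and 5 of the 10 in WT, where 19.9% stood. The WT count was 3 without WT ligated replicate 2 or 3 or WT naive replicate 1 or 2. DESeq2 called 8 of the 10 in Cybb-/- and 3 in WT (Ccl3, Ccr1 and Ccr2), where it called 17.8% and 8.93% of the genes it tested. The count of 8 depended on single libraries. It fell to 3 without ligated Cybb-/- replicate 3 or naive Cybb-/- replicate 3, to 4 without replicate 1 of either of these groups and to 5 without naive Cybb-/- replicate 2. Ccl3, Ccr1 and Ccr2 were called in all 12 fits that left out a library.

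**Figure D2:**
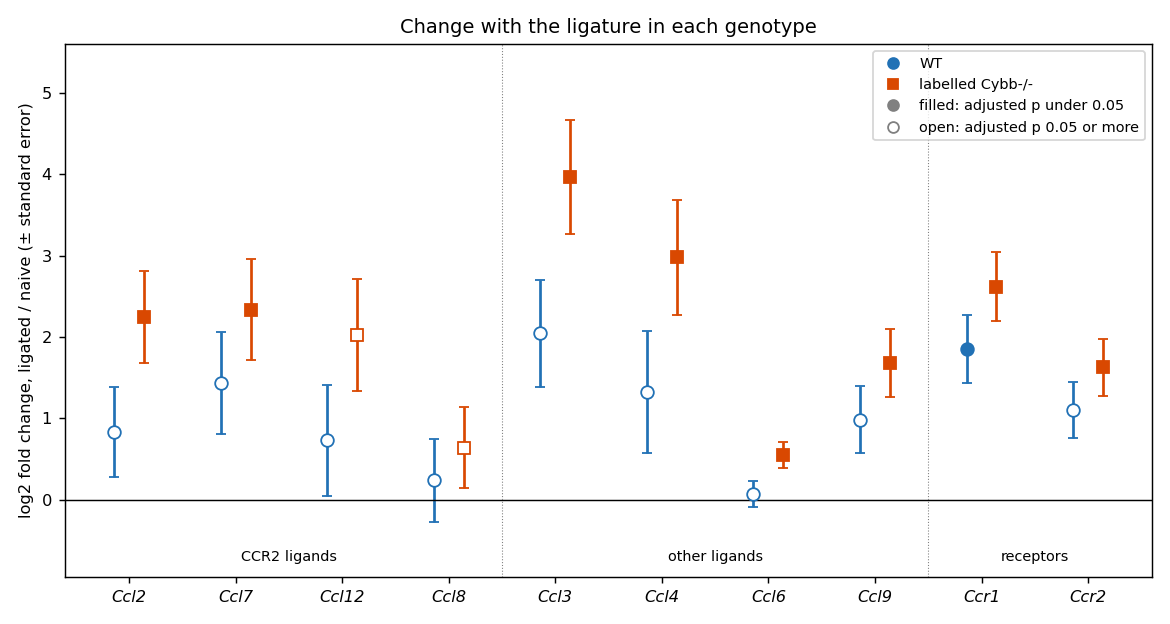
Log2 fold change between ligated and naive libraries (y axis) of each gene, with standard errors, for WT (circles) and for libraries labelled Cybb-/- (squares). Filled symbols have an adjusted p under 0.05, which are Ccr1 in WT and 8 genes in Cybb-/-, and Ccl3 in Cybb-/- is the highest at 3.96.

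Leukocyte markers moved along with these genes. Of 15 monocyte and macrophage markers, 4 were called higher in WT and 12 in Cybb-/-, and none lower. Their summed level ran from 265 to 314 CPM in WT naive, 343 to 511 CPM in WT ligated, 252 to 261 CPM in naive Cybb-/- and 440 to 671 CPM in ligated Cybb-/- libraries. Of 10 neutrophil markers tested, 1 was called higher in WT and 8 in Cybb-/-, and their sums were 371 to 843 CPM, 1341 to 3771 CPM, 820 to 924 CPM and 2499 to 11644 CPM in the same order of groups. S100a8 and S100a9 made up most of these neutrophil sums, with means of 2434 and 3562 CPM in ligated Cybb-/- libraries. No marker of either list was at 0 in all libraries. In whole tissue, more cells of a type and more RNA per cell cannot be told apart, and the part of these markers in the changes of the 10 genes was not tested.

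Among the ligands of CCR2, Ccl2 encodes the main monocyte attractant, released from bone marrow stroma and inflamed tissue. Its level was 1.83, 0.759 and 2.19 CPM in WT naive and 1.74, 1.83 and 4.90 CPM in WT ligated replicates 1 to 3. In libraries labelled Cybb-/- it was 0.722, 1.83 and 1.53 CPM in naive and 7.89, 3.02 and 8.49 CPM in ligated tissue. WT groups overlapped, with 1 ligated library high, whereas all ligated Cybb-/- libraries lay above the naive ones. The log2 fold change was 2.25 (standard error 0.57, adjusted p = 0.0234) in Cybb-/-, a call that was lost without ligated Cybb-/- replicate 1 or 3 or any naive Cybb-/- library (adjusted p from 0.0505 to 0.0842). In WT it was 0.83 (standard error 0.55, adjusted p = 0.439), with 0.17 without WT ligated replicate 3 and 1.12 without WT naive replicate 3.

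Ccl7 encodes a second CCR2 ligand, which also binds CCR1, and starts 10.1 kb from the start of Ccl2. It was measured at 0.670, 0.443 and 1.39 CPM in WT naive and at 0.946, 2.80 and 2.96 CPM in WT ligated libraries. Libraries labelled Cybb-/- had 0.750, 0.832 and 1.07 CPM in naive and 5.22, 1.28 and 6.89 CPM in ligated tissue. Ligated Cybb-/- replicate 2 was the low library of its group, as for Ccl2, but still above the naive group. Between ligated and naive libraries the log2 difference was 2.34 (standard error 0.62, adjusted p = 0.0301) in Cybb-/- and 1.43 (standard error 0.62, adjusted p = 0.228) in WT. The call in Cybb-/- was lost without ligated Cybb-/- replicate 1 or 3 or any naive Cybb-/- library (adjusted p from 0.0746 to 0.123). The WT value was 1.995 without WT naive replicate 3.

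Ccl12, which encodes a mouse CCR2 ligand, was scarce, with 5 to 60 reads a library. Its level was 0.365, 0.221 and 0.182 CPM in WT naive and 0.199, 0.837 and 0.259 CPM in WT ligated libraries. In libraries labelled Cybb-/- it was 0.231, 0.139 and 0.153 CPM in naive and 0.313, 0.455 and 1.37 CPM in ligated tissue. In each ligated group a single library was high, WT replicate 2 and Cybb-/- replicate 3. On the log2 scale Ccl12 differed by 2.02 (standard error 0.69, adjusted p = 0.0766) in Cybb-/-, a difference whose adjusted p stayed above the threshold under all alternatives run (adjusted p from 0.0528 to 0.383). Without ligated Cybb-/- replicate 3 the log2 difference was 1.12. In WT it was 0.73 (standard error 0.68, adjusted p = 0.594) and turned to -0.17 without WT ligated replicate 2.

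Ccl8 went its own way among the neighbours. It was at 4.75, 3.42 and 2.30 CPM in WT naive and at 1.64, 6.96 and 3.76 CPM in WT ligated libraries. Naive Cybb-/- libraries had 2.71, 6.19 and 5.06 CPM and ligated ones 4.49, 10.9 and 6.39 CPM. Groups overlapped in every comparison, and the high libraries were WT ligated replicate 2 and ligated Cybb-/- replicate 2, the latter being low for Ccl2, Ccl7 and Ccl9. For Ccl8 the log2 difference was 0.24 (standard error 0.51, 95% interval -0.87 to 1.35) in WT and 0.64 (standard error 0.50, 95% interval -0.46 to 1.74) in Cybb-/-. These intervals hold changes in both directions, including a doubling, so a constant level was not shown. In WT the value was -0.37 without WT ligated replicate 2.

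Of the other ligands, Ccl3 and Ccl4 encode the macrophage inflammatory proteins 1 alpha and 1 beta, products of activated myeloid cells. Ccl3 had 4 to 6 reads a library in WT naive, or 0.183, 0.127 and 0.219 CPM, and 0.398, 1.26 and 0.545 CPM in WT ligated tissue. Naive libraries labelled Cybb-/- had 0.115, 0 and 0.153 CPM, where the count of 0 in replicate 2 allows up to 0.0832 CPM (3 reads, counting error only). Ligated Cybb-/- libraries had 0.914, 1.74 and 1.60 CPM. Ligated and naive libraries did not overlap in either genotype. The log2 fold change was 3.96 (standard error 0.70, adjusted p = 0.00482) in Cybb-/-, a 15.6-fold difference that rests on 9 reads over the naive group and 170 over the ligated group. Leaving out naive Cybb-/- replicate 2 gave 3.37 and leaving out naive Cybb-/- replicate 3 gave 4.56. In WT it was 2.04 (standard error 0.65, adjusted p = 0.109), or 1.41 without WT ligated replicate 2, and DESeq2 gave an adjusted p of 0.0328, the lowest over the alternatives, which reached 0.343.

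Ccl4 lies beyond Ccl3 on the opposite strand. Its level was 0.213, 0.127 and 0.146 CPM in WT naive and 0.299, 0.550 and 0.389 CPM in WT ligated libraries. In libraries labelled Cybb-/- it was 0.404, 0 and 0.0915 CPM in naive and 1.12, 1.28 and 1.55 CPM in ligated tissue. All 3 ligated Cybb-/- libraries lay above the other 9. On the log2 scale Ccl4 was higher by 2.98 (standard error 0.70, adjusted p = 0.0180) in Cybb-/- and by 1.32 (standard error 0.74, adjusted p = 0.349) in WT. Leaving out a library moved the former from 2.39 (without naive Cybb-/- replicate 2) to 4.801 (without naive Cybb-/- replicate 1), and the call was lost without ligated Cybb-/- replicate 3 (adjusted p = 0.0625) or naive Cybb-/- replicate 3 (adjusted p = 0.0758).

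Ccl6 and Ccl9 encode CCR1 ligands found in rodents, made by macrophages and other myeloid cells. Ccl6 was the steadiest of the 10 between replicates. Its level was 20.1, 17.4 and 16.3 CPM in WT naive and 19.1, 15.4 and 22.1 CPM in WT ligated libraries. In libraries labelled Cybb-/- it was 23.1, 20.5 and 17.8 CPM in naive and 31.4, 26.9 and 31.4 CPM in ligated tissue. The ligated Cybb-/- libraries were above all others. In Cybb-/- the log2 difference was 0.54 (standard error 0.16, adjusted p = 0.0437), the smallest of the 8 called, and 0.07 (standard error 0.16, 95% interval -0.27 to 0.42) in WT. The call in Cybb-/- was lost under 10 of 21 alternatives, with adjusted p from 0.0179 to 0.156.

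Ccl9 was at 4.87, 4.87 and 6.78 CPM in WT naive and at 7.84, 8.14 and 16.7 CPM in WT ligated libraries. It was at 2.92, 7.44 and 5.19 CPM in naive and 21.1, 8.85 and 19.8 CPM in ligated libraries labelled Cybb-/-. Ligated libraries lay above naive ones in both genotypes, and 1 library of each ligated group stood away from the other pair, high in WT and low in Cybb-/-. On the log2 scale Ccl9 was higher by 1.68 (standard error 0.42, adjusted p = 0.0231) in Cybb-/- and by 0.98 (standard error 0.42, adjusted p = 0.214, from 0.0468 to 0.602 over the alternatives) in WT, where DESeq2 on the 6 WT libraries gave the lowest value. The call in Cybb-/- was lost without replicate 1 or 3 of either Cybb-/- group (adjusted p from 0.0729 to 0.0922).

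Of the receptors, Ccr1 was the gene called in both genotypes. It had 3.62, 2.85 and 2.41 CPM in WT naive and 6.75, 8.30 and 17.0 CPM in WT ligated libraries. It had 4.70, 3.05 and 4.15 CPM in naive and 28.3, 11.7 and 33.0 CPM in ligated libraries labelled Cybb-/-. No ligated library reached down to a naive one. The log2 fold change was 2.62 (standard error 0.42, adjusted p = 0.00342) in Cybb-/-, where all 21 alternatives called it. In WT it was 1.85 (standard error 0.42, adjusted p = 0.0400, from 4.66e-05 to 0.156 over the alternatives). That call was lost with edgeR on the 6 WT libraries (adjusted p = 0.0543) and in 8 of the 12 fits that left out a library, which were those without WT ligated replicate 2 or 3, any WT naive library, ligated Cybb-/- replicate 1, or naive Cybb-/- replicate 1 or 3. Without WT ligated replicate 3 the log2 difference was 1.34 (adjusted p = 0.142). Without WT naive replicate 3, the library with the high Muc5b-driven sum, it was 1.72 (adjusted p = 0.0683).

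Ccr2, the receptor by which classical monocytes respond to Ccl2, was at 9.93, 11.2 and 4.59 CPM in WT naive and at 16.5, 14.6 and 23.95 CPM in WT ligated libraries. In libraries labelled Cybb-/- it was at 7.504, 9.38 and 10.6 CPM in naive and at 33.0, 17.1 and 34.8 CPM in ligated tissue. Ligated libraries again lay above naive ones in both genotypes. The log2 fold change was 1.62 (standard error 0.35, adjusted p = 0.0116) in Cybb-/-, called under all 21 alternatives. In WT it was 1.10 (standard error 0.35, adjusted p = 0.104), with an adjusted p of 0.0253 by DESeq2 (from 0.0186 to 0.318 over the alternatives) and a log2 fold change of 0.80 without WT naive replicate 3.

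The receptors were also set against summed marker levels. Per 1000 CPM of the monocyte and macrophage markers, Ccr1 measured 13.01, 10.8 and 7.67 CPM in WT naive and 19.7, 18.98 and 33.3 CPM in WT ligated libraries. The same ratio was 18.0, 12.1 and 16.2 CPM in naive and 46.0, 26.5 and 49.1 CPM in ligated libraries labelled Cybb-/-. Ccr1 was therefore higher in ligated libraries in both genotypes also on this scale, without overlap. The neutrophil sum was mostly S100a8 and S100a9, so ratios to it follow these genes more than the rest of the list. Per 1000 CPM of the neutrophil markers Ccr1 overlapped between ligated and naive libraries, with 3.21 to 5.03 CPM against 4.30 to 7.13 CPM in WT and 2.83 to 6.40 CPM against 3.45 to 5.09 CPM in Cybb-/-. For Ccr2 the ratio to the monocyte and macrophage markers was 30.9 ± 14.4 CPM (SD, n = 3) in WT naive, 42.9 ± 8.18 CPM (SD, n = 3) in WT ligated, 35.8 ± 6.48 CPM (SD, n = 3) in naive Cybb-/- and 48.1 ± 7.99 CPM (SD, n = 3) in ligated Cybb-/- libraries. The ligated and naive groups of Ccr2 overlapped in both genotypes. Per 1000 CPM of the neutrophil markers Ccr2 was lower in ligated libraries labelled Cybb-/-, at 2.99 to 7.45 CPM against 8.12 to 12.99 CPM in naive ones without overlap, and overlapped in WT, at 5.66 to 12.3 CPM against 11.8 to 28.03 CPM. Per 1000 CPM of the monocyte and macrophage markers Ccl6 was lower in ligated libraries labelled Cybb-/-, at 46.8 to 61.1 CPM against 69.5 to 88.5 CPM in naive ones without overlap, while in WT the groups overlapped, with 51.9 to 72.0 CPM in naive and 35.3 to 55.7 CPM in ligated libraries. No test was run on these ratios.

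**Figure D3:**
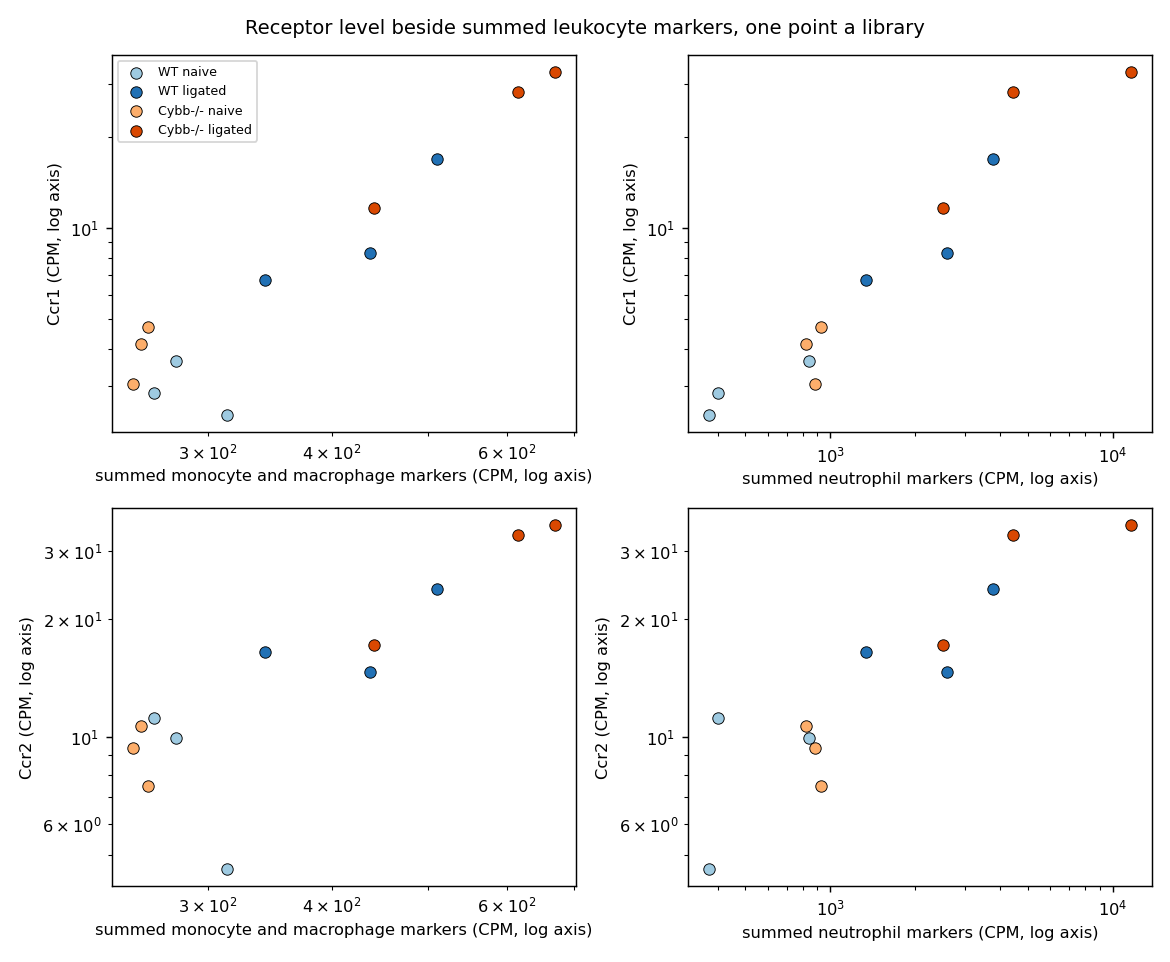
Level of Ccr1 and Ccr2 in CPM (y axes, log scale) against the summed level of monocyte and macrophage or neutrophil markers in CPM (x axes, log scale), with 1 point a library coloured by group. The neutrophil sum is mostly S100a8 and S100a9. Ligated Cybb-/- replicates 1 and 3 are at the upper right in all 4 panels, with Ccr1 at 28.3 and 33.0 CPM, and replicate 2 lies among the WT ligated libraries.

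Between genotypes in ligated tissue, all 10 genes had a fitted change above 0 in the libraries labelled Cybb-/-, as did 53.4% of all genes. None was called by edgeR, where 0.00665% of all genes were called, and none by DESeq2, where 0.112% were. Their median log2 fold change was 0.88 against 0.01 for all genes, with a range from 0.61 for Ccl9 to 1.67 for Ccl4. At an unadjusted p under 0.05 stood 4 of the 10, where 3.34% of all genes stood. Leaving out a library moved this count from 1 (without WT ligated replicate 1 or ligated Cybb-/- replicate 3) to 7 (without ligated Cybb-/- replicate 2), with 6 without WT ligated replicate 2. On the log2 scale these were Ccl6 at 0.66 (standard error 0.16, unadjusted p = 0.00138), Ccr1 at 1.19 (standard error 0.40, unadjusted p = 0.0122), Ccl4 at 1.67 (standard error 0.63, unadjusted p = 0.0214) and Ccl2 at 1.19 (standard error 0.54, unadjusted p = 0.0473). Ccl4 and Ccl6 were the genes whose 3 Cybb-/- libraries all lay above the 3 WT libraries, where 7.84% of all genes had no overlap in either direction. DESeq2 gave Ccl6 an adjusted p of 0.0883 (from 0.0715 to 1.00 over the alternatives). On the 6 ligated libraries alone DESeq2 called 1 of the 10, Ccl4 (adjusted p = 0.0357, up to 1.00 over the alternatives). The other 6 genes had 95% intervals that held 0, and the interval of Ccl2 began at 0.02. The monocyte and macrophage markers had a median of 0.54 and the neutrophil markers of 1.31 in the same comparison, with none called, and their part in these differences was not tested.

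In naive tissue the 10 genes did not separate by genotype. A fitted change above 0 was seen for 6 of them, where 50.5% of all genes were above 0, and their median log2 fold change was 0.06. No gene of the 10 was called by edgeR or DESeq2, none had an unadjusted p under 0.05 with either tool, and none had groups without overlap, where 0.00665% of all genes were called by edgeR, 0.0110% by DESeq2, 2.03% had an unadjusted p under 0.05, and 5.11% had no overlap in either direction. The intervals were wide for the scarce genes. For Ccl3 the log2 fold change was -0.97 (95% interval -2.74 to 0.80) and for Ccl4 0.02 (95% interval -1.78 to 1.82). The narrowest was that of Ccl6, 0.19 (95% interval -0.16 to 0.54). For Ccr1 the change was 0.42 (95% interval -0.49 to 1.33) and for Ccr2 0.10 (95% interval -0.66 to 0.85).

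**Figure D4:**
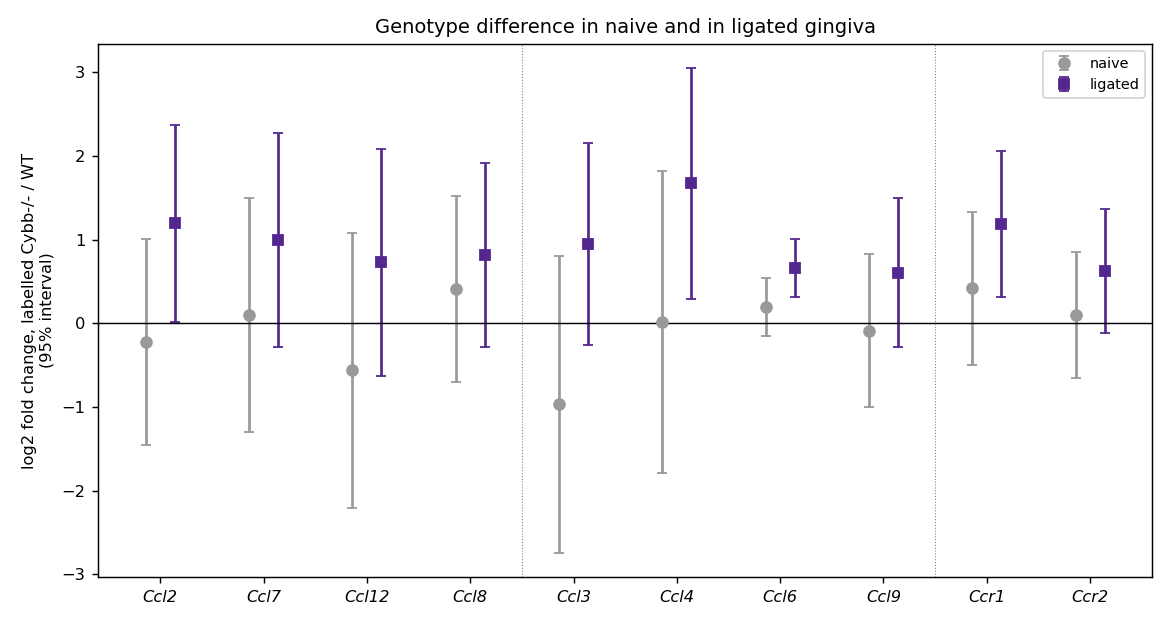
Log2 fold change between libraries labelled Cybb-/- and WT (y axis) of each gene, with 95% intervals, in naive (grey circles) and ligated (purple squares) gingiva. In ligated tissue all 10 values lie above 0 and the intervals of Ccl2, Ccl4, Ccl6 and Ccr1 leave out 0, while in naive tissue every interval holds 0.

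The interaction of genotype and ligature asks directly whether the response differed between genotypes. All 10 genes had an interaction above 0, where 53.3% of all genes did, with a median of 0.84 against 0.02 for all genes. The comparisons share libraries, so this repeats the larger responses in Cybb-/- given above. No gene of the 10 was called by edgeR or DESeq2, and none had an unadjusted p under 0.05 with either tool, where 2.27% of all genes did with edgeR. Over all genes each tool tested, edgeR and DESeq2 both called 0.00%. Leaving out a library moved the count of the 10 genes at an unadjusted p under 0.05 from 0 to at most 3, reached without WT ligated replicate 3 or ligated Cybb-/- replicate 2. The lowest value was that of Ccl6, with an interaction of 0.47 (standard error 0.23, unadjusted p = 0.0597). That of Ccl3 was 1.92 (standard error 0.98, 95% interval -0.23 to 4.06) and that of Ccl2 was 1.42 (standard error 0.78, 95% interval -0.29 to 3.12). A larger response in Cybb-/- than in WT was therefore not shown for any of the 10 at this number of libraries.

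Within the ligated groups, single libraries were the highest or lowest for several genes. Ligated Cybb-/- replicate 3 had the highest level of its group for 7 of the 10 genes, while replicate 2 had the lowest for 6 and the highest for Ccl3 and Ccl8. WT ligated replicate 1 was lowest for 8 genes, WT ligated replicate 3 was highest for 6, and WT ligated replicate 2 was highest for Ccl3, Ccl4, Ccl8 and Ccl12. In naive Cybb-/- tissue, replicates 1, 2 and 3 were highest for 4, 3 and 3 genes. Over the 12 libraries, Pearson correlations of log2 CPM were above 0 for all 45 pairs of genes, with a median of 0.67. These are descriptions over libraries that include the differences between groups, and they do not show movement within a group. The closest pairs were Ccl2 with Ccl9 (r = 0.95), Ccr1 with Ccr2 (r = 0.93) and Ccl3 with Ccl4 (r = 0.92). Ccl8 was the least alike, with r = 0.52 to Ccl12 as its best and 0.27 to Ccl9 as its lowest value.

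**Figure D5:**
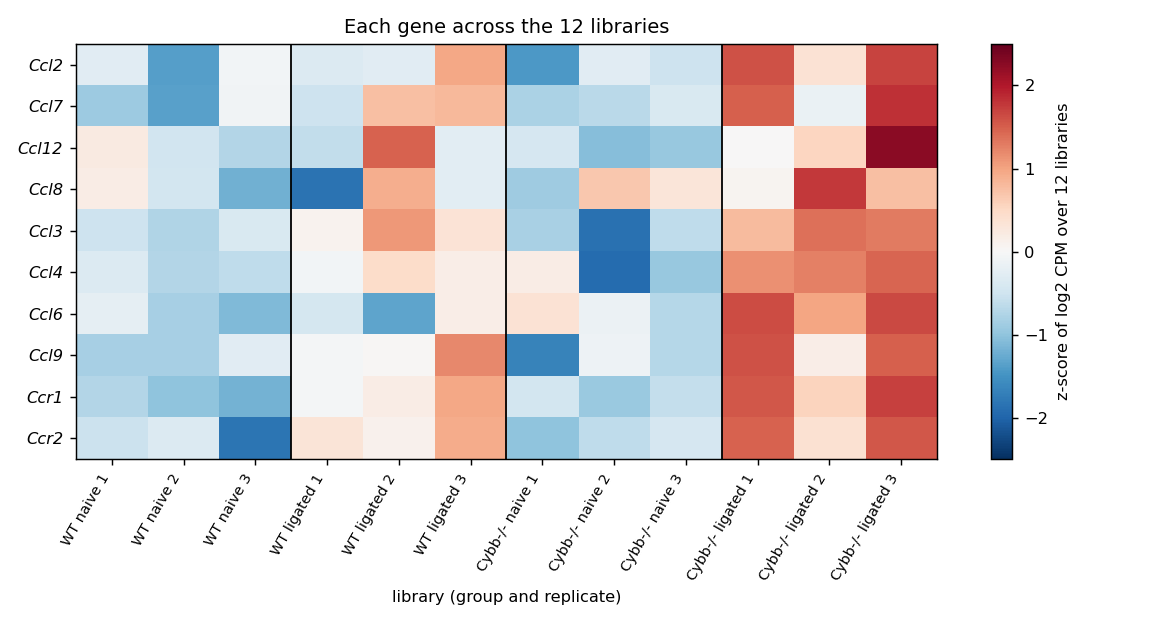
Each gene (rows) in each of the 12 libraries (columns, by group and replicate), coloured by the z-score of its log2 CPM over the 12 libraries. Most genes are highest in ligated Cybb-/- replicates 1 and 3, and Ccl8 is highest in replicate 2 at 10.9 CPM.

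Outside the 10 genes, among those whose pattern was most like their mean z-score over the 12 libraries were Plek (r = 0.98), which encodes pleckstrin of platelets and leukocytes, Cd53 (r = 0.98), a leukocyte tetraspanin, Slfn4 (r = 0.98) and Stom (r = 0.98). For single genes other than Ccl3 and Ccl4 the most alike were Samsn1 for Ccr1 (r = 0.99), Cfp for Ccl7 (r = 0.99), Gimap8 for Ccr2 (r = 0.98), Apold1 for Ccl9 (r = 0.97), Dpysl2 for Ccl2 (r = 0.94), Il10rb for Ccl6 (r = 0.90), Degs2 for Ccl12 (r = 0.87) and Ifit3 for Ccl8 (r = 0.86). Ifit3 is an interferon-induced gene. Its highest level was 12.4 CPM in ligated Cybb-/- replicate 2, the library where Ccl8 was highest too, and 1.72 to 5.38 CPM in the other 11. These likenesses were picked as the highest among 15046 genes and are given without a test.

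Of 13 further CC chemokines 8 passed the filter on low counts, and only Ccl11, which encodes the eosinophil attractant eotaxin and lies between Ccl7 and Ccl12, was called, at 1.499 on the log2 scale (standard error 0.39, adjusted p = 0.0261) in Cybb-/-. Ccl11 was also the most abundant of these per length, at 5.83 ± 1.89 CPM per kb (SD, n = 3) in WT naive and 15.4 ± 4.89 CPM per kb (SD, n = 3) in ligated Cybb-/- libraries. Among further receptor genes, none rose in WT, and Ccrl2, which encodes a chemerin-binding receptor, rose in Cybb-/- by 1.63 on the log2 scale (standard error 0.36, adjusted p = 0.0132). Of the 4 atypical receptors, which bind chemokines without G protein signalling, Ackr1 at 1.67 (standard error 0.29, adjusted p = 0.00464) and Ackr4 at 1.18 (standard error 0.32, adjusted p = 0.0320) rose in Cybb-/-, and none in WT. Per length, Ackr3 was the most abundant of them in 3 of the 4 groups, with 7.81 ± 2.04 CPM per kb (SD, n = 3) in WT naive tissue, and Ackr1 in ligated Cybb-/- libraries, with 13.4 ± 4.32 CPM per kb (SD, n = 3). Median log2 fold changes in Cybb-/- were 0.79 for the chemokines and 0.86 for the atypical receptors, against -0.03 for all genes.

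Of 15 genes that carry or regulate the signal of chemokine receptors, 5 rose in WT and 9 in Cybb-/-, and none fell by edgeR, while DESeq2 called 1 lower in each genotype. In WT these were Rac2, the GTPase of blood cells, at 1.51 (standard error 0.31, adjusted p = 0.0282), Plcb2 at 1.15 (standard error 0.28, adjusted p = 0.0481), the Rac exchange factors Prex1 at 0.99 (standard error 0.20, adjusted p = 0.0266) and Dock2 at 0.93 (standard error 0.23, adjusted p = 0.0497), and Elmo1 at 0.91 (standard error 0.21, adjusted p = 0.0450). In Cybb-/- the largest were Rac2 at 1.92 (standard error 0.31, adjusted p = 0.00342), Rgs2 at 1.87 (standard error 0.44, adjusted p = 0.0182), and the kinase subunits Pik3cg at 1.76 (standard error 0.33, adjusted p = 0.00637) and Pik3r5 at 1.75 (standard error 0.38, adjusted p = 0.0123). The broadly expressed G protein subunits Gnai2 and Gnai3, the latter the most abundant of the list per length, did not pass the test in either genotype.

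Of 15 tested genes of NF-kB signalling and of the cytokines that induce it, 4 rose in Cybb-/- and none in WT. They were Il1b at 2.71 (standard error 0.53, adjusted p = 0.00729), the monocyte growth factor Csf1 at 1.19 (standard error 0.25, adjusted p = 0.00989), the transcription factor Irf1 at 1.08 (standard error 0.25, adjusted p = 0.0182) and the NF-kB inhibitor Tnfaip3 at 0.92 (standard error 0.22, adjusted p = 0.0200). The NF-kB subunits Nfkb1, Nfkb2, Rela, Relb and Rel, the inhibitor Nfkbia and Tnf did not pass it. Per length, Nfkbia was the most abundant of the list in 3 of the 4 groups, and in ligated Cybb-/- libraries Il1b was, at 78.1 ± 23.3 CPM per kb (SD, n = 3) against 72.3 ± 16.9 CPM per kb (SD, n = 3) for Nfkbia. The median log2 fold change of the list was 0.39 in Cybb-/- and -0.03 in WT. Between genotypes no gene of these related lists was called, in ligated or naive tissue.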

How the data were processed

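RNA was taken from gingival tissue of 4 groups of 3 libraries. According to the study's methods, a strand-specific mRNA kit was used, STAR aligned the reads (GRCm38), and featureCounts in reverse strand mode assigned them to genes. The submitters' processing notes instead name HTSeq 0.10.0, with FastQC 0.10.1 and the builds mm10 and GRCm38. The values deposited by the authors are raw read counts per gene, not normalized, in a single table.

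Of 21965 genes, 21939 were matched to GENCODE M21 for position and exon length, and 26 were not. Genes with low counts were removed by edgeR's filterByExpr by group, which left 15046. The 12 libraries (27958819 to 42613423 reads) were fitted together with 1 mean a group in edgeR 4.0.16 (R 4.3.3), with TMM factors of 0.918 to 1.08, the quasi-likelihood test with 8 residual degrees of freedom, and Benjamini-Hochberg adjustment over all genes tested. A gene was called at an adjusted p under 0.05. The biological coefficient of variation was 0.240, which sets the precision more than depth does, except for genes with few reads. CPM are on the TMM scale, and log2 CPM for correlations and z-scores carry a prior count of 2. DESeq2, which the study used in an earlier version, was run here in version 1.42.0 as an alternative. Other alternatives were library size scaling, other filters, a fit to the 6 libraries compared, a replicate block and the omission of each library in turn. Promoter sequences are from RefSeq. The scripts were tested on simulated data.

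The 10 genes and the related lists were chosen with earlier results of these data known, so their agreement with a pattern already seen is not independent evidence. All 10 genes are reported in every comparison. The most alike genes were those with the highest Pearson correlation, and from each related list the called genes with the largest change, up to 4, and the most abundant per length were named. The 5 signalling genes called in WT, the genes of these lists named as not called, and single cell type markers were named after their values were seen. A few genes that these rules would name are not reported here. No library was left out of the values in the text unless stated.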

Additional observations from a re-analysis of the deposited data

How the results depend on the processing

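Over 21 alternatives a comparison at most, 950 of 1011 values of the 10 genes kept their direction and side of the threshold, 35 lost a call, 5 gained one and 21 changed sign. Genes called in WT numbered 481 (348 higher, 133 lower), 1372 by DESeq2, 1280 by DESeq2 on 6 libraries and 271 with the replicate block, and 27 (without WT naive replicate 2) to 900 (without ligated Cybb-/- replicate 2) when leaving out a library. Scaling by library size alone gave 477 higher and 68 lower. Of the 10 genes, 3 were called in WT by DESeq2 on 12 or 6 libraries, 0 by edgeR on 6 libraries, and 0 to 1 when leaving out a library. In Cybb-/- leaving out a library gave 3 to 8 of the 10 genes and 837 (without ligated replicate 1) to 2949 (without ligated replicate 2) of all genes. In ligated tissue the genotype comparison called 1 of all genes, 18 by DESeq2, 75 by DESeq2 on 6 libraries (1 of the 10 genes), 0 by edgeR on 6 libraries and 0 to 2 when leaving out a library. In naive tissue DESeq2 called 2 genes, and 11 on 6 libraries. The interaction called 0 to 1 gene when leaving out a library, with 1 without WT naive replicate 2. The causes were not tested.

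Same-numbered libraries did not pair: correlations of their deviations from the group means ran from -0.23 to 0.11, and 2 of 12 libraries correlated best with a library of their own number. With the replicate block as a term, Ccl6 in Cybb-/- was no longer called (adjusted p = 0.0593), and the other calls on the 10 genes stood.

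Signs changed for log2 fold changes that were not called, mostly on leaving out a library, which gave these ranges. In WT, Ccl6 ran from -0.054 (without WT ligated replicate 3) to 0.20, Ccl8 from -0.37 (without WT ligated replicate 2) to 0.65, with -0.0034 under the replicate block, and Ccl12 from -0.17 (without the same library) to 1.11. Between genotypes in ligated tissue, Ccl12 ran from -0.17 (without ligated Cybb-/- replicate 3) to 1.63. Between genotypes in naive tissue, Ccl2 ran from -0.56 to 0.081, Ccl4 from -1.81 (without naive Cybb-/- replicate 1) to 0.61, Ccl7 from -0.21 to 0.66, Ccl9 from -0.44 to 0.20 and Ccr2 from -0.20 (without WT naive replicate 3) to 0.33, and Ccl4 was -0.014 with library size only and -0.061 with the replicate block. The interaction of Ccl8 ran from -0.012 (without ligated Cybb-/- replicate 2) to 1.01. Depth limits Ccl3, Ccl4 and Ccl12, which had few reads in naive libraries.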

Other observations

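Markers of the stromal and lymphoid cells that surround or receive these chemokines also moved with the ligature. Of 5 fibroblast genes 1 rose in WT and 4 in the libraries labelled Cybb-/-, and their summed level ran from 1109 to 2145 CPM in naive and from 2665 to 7134 CPM in ligated libraries. Of 4 endothelial genes, Pecam1, Cdh5 and Kdr rose in both genotypes, with log2 fold changes of 0.97, 1.23 and 1.01 in WT. Of 7 T and NK cell genes only Cd4 rose, by 1.94 on the log2 scale in Cybb-/- (standard error 0.47, adjusted p = 0.0208). Among the B cell genes none rose, and Ms4a1 fell in Cybb-/-, at -2.82 (standard error 0.64, adjusted p = 0.0144). No oral epithelial, skeletal muscle or salivary gland marker was called in either genotype.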
